A study of Mus musculus with 16 samples.

Results

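ATAC-seq peak lists of pancreatic islets from the wild-derived inbred mouse strains CAST (CAST_EiJ) and WSB (WSB_EiJ) were compared, with 1 female and 1 male sample of each strain. The series holds 16 samples, 1 of each sex from 8 founder strains. These 4 were taken by strain label, from the wild-derived strains with the most similar peak lists. Each sample came from 50 islets per the methods of the study. Treatment was not part of the design, and neither the age of the mice nor the number of animals behind a sample was given in the sources used here. The female and the male were the only replicates of a strain, so strain differences are judged against a spread that also holds sex, and p-values measure the spread between these samples alone. The unit of description was the merged region: overlapping peaks of the 4 lists on chromosomes 1 to 19 were joined, which gave 223893 regions. A sample had a region listed if 1 of its peaks overlapped it, and its value there was the highest summit signal of its peaks.

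In ATAC-seq a transposase cuts DNA that is not wrapped tightly in nucleosomes, so that promoters and enhancers in use collect reads. Islets are small endocrine organs in the pancreas in which insulin-secreting beta cells are the most abundant cell type in the mouse, beside glucagon-secreting alpha cells and somatostatin-secreting delta cells. CAST derives from the subspecies Mus musculus castaneus and WSB from Mus musculus domesticus, the subspecies that contributed most of the genome of classical laboratory strains such as B6. All lists were made from reads aligned to the B6 reference genome, so a sequence that CAST or WSB lacks, or carries in other copies, is read through the reference.

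Windows of 200 bases around the summits of 8 of the regions with the strongest differences illustrate what kind of DNA was involved. They are shown because they lead their group once windows that touch untranslated regions are passed over. The sequence is that of the reference, GRCm38 from RefSeq, on the forward strand, and not that of CAST or WSB. Capitals mark matches to the 11 motifs of 7 or more letters, among them the AP-1 site TGANTCA, out of 16 motifs searched on both strands.
Itga9 promoter region, higher in CAST, chr9:118714547-118714746: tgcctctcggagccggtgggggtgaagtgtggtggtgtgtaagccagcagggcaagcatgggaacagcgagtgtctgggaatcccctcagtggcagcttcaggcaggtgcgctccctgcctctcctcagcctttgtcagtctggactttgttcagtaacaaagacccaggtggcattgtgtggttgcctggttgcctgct
Tbx20 intron region, higher in CAST, chr9:24745096-24745295: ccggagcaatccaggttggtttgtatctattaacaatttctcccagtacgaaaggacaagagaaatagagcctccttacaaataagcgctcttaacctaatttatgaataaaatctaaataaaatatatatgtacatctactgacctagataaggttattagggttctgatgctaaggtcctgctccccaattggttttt
Adh6a promoter region, higher in WSB, chr3:138316260-138316459: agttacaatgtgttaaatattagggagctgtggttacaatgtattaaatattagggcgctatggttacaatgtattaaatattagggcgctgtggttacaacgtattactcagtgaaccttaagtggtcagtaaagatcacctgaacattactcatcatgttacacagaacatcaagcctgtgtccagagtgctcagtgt
Ptprk intron region, higher in WSB, chr10:28524452-28524651: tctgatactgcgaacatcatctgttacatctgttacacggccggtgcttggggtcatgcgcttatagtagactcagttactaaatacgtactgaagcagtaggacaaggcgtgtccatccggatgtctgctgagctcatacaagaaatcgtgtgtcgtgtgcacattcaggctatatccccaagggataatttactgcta
Gm47965 intergenic region, listed in CAST only, chr10:126511604-126511803: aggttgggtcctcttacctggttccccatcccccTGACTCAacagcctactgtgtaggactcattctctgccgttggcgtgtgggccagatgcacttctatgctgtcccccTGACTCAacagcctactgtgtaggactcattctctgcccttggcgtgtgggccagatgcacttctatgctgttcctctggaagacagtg
9030624G23Rik promoter region, listed in CAST only, chr12:24097249-24097448: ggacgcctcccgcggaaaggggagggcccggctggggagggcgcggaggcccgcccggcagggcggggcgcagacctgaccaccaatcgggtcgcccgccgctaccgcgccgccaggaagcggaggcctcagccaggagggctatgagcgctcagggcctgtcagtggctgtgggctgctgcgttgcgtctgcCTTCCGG
Tmem125 intergenic region, listed in WSB only, chr4:118547620-118547819: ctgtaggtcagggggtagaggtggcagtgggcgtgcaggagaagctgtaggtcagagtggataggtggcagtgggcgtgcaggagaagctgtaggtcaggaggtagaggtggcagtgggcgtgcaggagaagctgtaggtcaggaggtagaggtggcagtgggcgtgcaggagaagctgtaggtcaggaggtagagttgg
Slc19a3 promoter region, listed in WSB only, chr1:83036952-83037151: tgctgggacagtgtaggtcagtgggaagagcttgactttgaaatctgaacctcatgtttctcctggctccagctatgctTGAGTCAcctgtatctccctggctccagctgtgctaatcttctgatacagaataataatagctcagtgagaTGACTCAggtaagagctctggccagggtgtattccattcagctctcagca
The window near Gm47965 held 2 AP-1 matches, and of its 171 words of 30 bases 38 had a second exact copy in the reference. These were 19 pairs of words, with both copies inside the window itself. The window near Tmem125 is a tandem repeat, in which 141 of the 171 words had further copies and the commonest word had 33. In the 9030624G23Rik window 132 of the 171 words had further copies. The Slc19a3 window held 2 AP-1 matches and no repeated word. In the Tbx20 window 14 of the 171 words had a second copy, and 12 of the 171 also occurred in the mitochondrial genome of the reference. The Itga9 and Ptprk windows had no word with a second copy, and the Adh6a window had 2.

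The 4 lists held 140841 peaks in the CAST female, 134813 in the CAST male, 167051 in the WSB female and 133259 in the WSB male, against 77887 to 145886 in the 12 samples of the other strains. The WSB female thus had the longest list of the series. How many reads each library held cannot be read from these values. The study gives an average over its samples, and the depth of each single library is unknown here. A region without a peak is listed at 0, meaning that nothing passed the threshold of the peak caller, and closed chromatin is not implied. Values of a sample were divided by its median summit signal over the regions listed in all 4 samples (50 in the CAST female, 62 in the CAST male, 51 in the WSB female and 42 in the WSB male) and are called scaled signal, so that 1 is the level of a typical shared region.

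Of the 223893 regions, 85103 (38%) were listed in all 4 samples, 13656 (6.10%) in both CAST samples and neither WSB sample, and 18199 (8.13%) in both WSB samples and neither CAST sample. Regions listed in both females and no male numbered 3389, and 639 were listed in both males and no female. The regions of 1 strain were thus several times as many as the regions of 1 sex. The WSB female alone accounted for 36211 regions (16.2%), the CAST female alone for 19640, the CAST male alone for 12665 and the WSB male alone for 12244. Regions of 1 strain were weak and narrow. Their median scaled signal was 0.371 in CAST-only and 0.392 in WSB-only regions, and their median widths were 225 and 229 bases, against 672 bases for the regions listed in all 4. With the same number of peaks taken from every list, the most significant 133259, CAST-only regions numbered 15778 and WSB-only regions 16144. The order turned when a sample's peaks had to span at least 0.5 of a region, with 19519 CAST-only and 17040 WSB-only regions, and between the authors' strain lists at an irreproducible discovery rate of 0.05 (16351 and 15226), so which strain had more regions of its own depended on the setting.

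Samples of the same strain had more accessible bases in common than samples of different strains. The Jaccard index, the bases in both lists divided by the bases in either, was 0.673 for the CAST pair and 0.585 for the WSB pair, and 0.491 to 0.512 for the 4 pairs across strains. Over the 85103 shared regions the log2 signals of the CAST female and male had a Pearson r of 0.963 and those of the WSB pair 0.960, and the pairs across strains 0.823 to 0.850. These correlations are across regions of the same 4 libraries, which are not independent, and are given as a description. The strains were taken as the wild-derived pair with the most similar lists, which bears on the overlap across strains. The difference between female and male had an SD of 0.386 on the log2 scale in CAST and 0.385 in WSB, and 1.74% and 2.08% of regions differed by more than 1. The difference between the strain means had an SD of 0.748, and 14.7% of regions differed by more than 1, which is a 2-fold change.

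**Figure D1:**
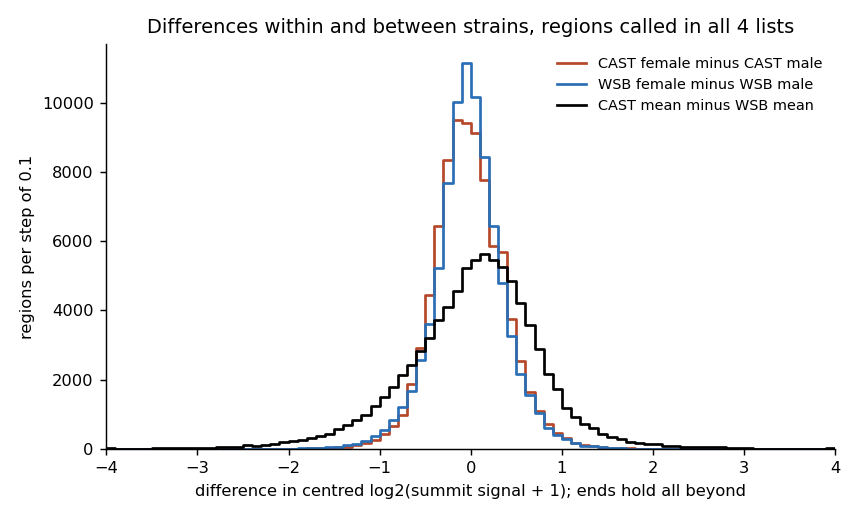
Number of regions (y axis, per step of 0.1) by difference in centred log2(summit signal + 1) (x axis), for CAST female minus male (red), WSB female minus male (blue) and the CAST mean minus the WSB mean (black) over the 85103 regions listed in all 4 samples. The strain difference spreads more widely (SD 0.748) than the differences between sexes (SD 0.386 and 0.385), with a longer tail on the WSB side.

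To ask which shared regions differed in accessibility between the strains, log2(summit signal + 1), centred on the sample median, was tested with limma's moderated test at a Benjamini-Hochberg adjusted p-value under 0.05. Of the 85103 regions, 31115 (36.6%) were called: 17182 (20.2%) were higher in CAST and 13933 (16.4%) higher in WSB. Large differences were more frequent on the WSB side. A log2 difference beyond 2 was found in 648 regions higher in CAST and 1004 higher in WSB, and one beyond 1 in 5568 and 6909. The samples of the strains did not overlap in 57430 of the 85103 regions, 32163 toward CAST and 25267 toward WSB, so a lack of overlap was common. For a single region an exact permutation test of 2 against 2 samples cannot go below p = 0.33, so the calls rest on limma's pooling of the spread over regions, and without the WSB female they numbered 20674. Relative numbers of the 2 directions depended on the scaling: without centring the calls were 16740 higher in CAST and 5451 higher in WSB, since the median difference was then 0.34 in place of 0.08.

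Calls were unevenly placed. Among regions within 3 kb of a transcription start site (promoters), 30.2% were higher in CAST and 10.6% higher in WSB, whereas in introns the shares were 15.4% and 18.4%, in intergenic regions 16.7% and 19%, and in exons 21.4% and 17.1%. The same held along base composition. In the fifth of regions with the lowest GC content 12.9% were higher in CAST and 20.0% higher in WSB, and in the fifth with the highest GC content 34.4% and 7.68%. Of 13449 promoters of protein-coding genes tested, 5422 (40.3%) were higher in CAST and 760 (5.65%) higher in WSB, with a median log2 difference of 0.34. Centring promoters and other regions separately, a scaling chosen after seeing the data, left 1310 promoters (9.74%) higher in CAST and 1137 (8.45%) higher in WSB, and centring within bins of GC content left 1787 and 1168. Separate centring brings the directions nearer to balance by its construction, so these counts show the dependence on scaling and no more. Whether the lean of promoters toward CAST belongs to the strains or to the libraries was not tested.

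The lean of promoters can be compared with the other strains over the 41153 regions listed in all 16 samples. The median log2 signal of promoters exceeded that of other regions by 1.19 in the CAST female and 1.06 in the CAST male, and by 0.740 in the WSB female and 0.835 in the WSB male. Both CAST samples were above both WSB samples. In the other samples this contrast ranged from 0.579 in the B6 male to 1.44 in the NZO male. The strain difference of 0.338 was smaller than the gap between the sexes of NZO (0.607), and in 2 of the 6 other strains the sexes differed by more than CAST and WSB did.

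**Figure D2:**
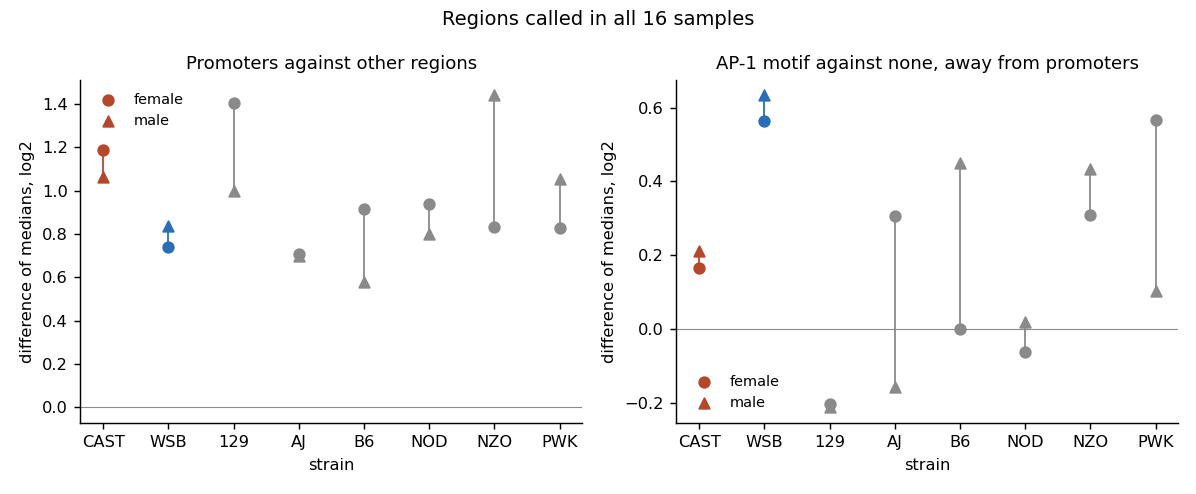
Left, median log2 signal of promoters minus that of all other regions; right, median log2 signal of regions with an AP-1 site minus that of regions without one, away from promoters (y axes, log2), for the female (circle) and male (triangle) of each strain (x axis), over regions listed in all 16 samples. CAST (red) is above WSB (blue) on the left and below it on the right, and some gaps between the sexes of 1 strain, such as that of NZO on the left (0.607) and of PWK on the right (0.463), are as wide.

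Among promoter regions of protein-coding genes up to 5 kb wide, the largest differences toward CAST were at genes of varied function, several of them in families of near-identical copies. The region at the start of the zinc finger gene Zfp951 (chr5:104859418-104860799) had summit signals of 266 and 307 in the CAST female and male and 14 and 27 in the WSB female and male. Both CAST values were far above both WSB values, a log2 difference of 3.55 ± 0.23 (SE; limma adjusted p = 2.4e-22). Zfp937 (chr2:150217420-150219091), another zinc finger gene, had 1025 and 1635 in CAST and 143 and 151 in WSB (log2 difference 2.87). In the 200 bases around the summit, 105 of 171 words of the Zfp951 region and 132 of 171 of the Zfp937 region had further copies in the reference, so reads there may come from relatives. Dynlt1b, which encodes a light chain of the motor dynein, had 1254 and 1416 in CAST and 175 and 147 in WSB (chr17:6429086-6431776, log2 difference 2.79), again with copies for 103 of 171 words. Gm3252 on chromosome 14 had a log2 difference of 2.79, but each word of its window had further copies, up to 40.

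Other promoter regions higher in CAST had no such copies around the summit. Itga9, the integrin alpha 9 chain that binds extracellular matrix, had summit signals of 188 and 213 in CAST and 18 and 13 in WSB in a region 2687 bases from its start (chr9:118714344-118714947), a log2 difference of 3.36 ± 0.24 (SE; limma adjusted p = 1.02e-20). This region was listed in all 12 samples of the other strains. Nectin3, a cell adhesion molecule, had 159 and 267 against 30 and 20 (chr16:46451456-46452311, log2 difference 2.76). Nat2, an arylamine N-acetyltransferase, had 116 and 213 against 20 and 16 (chr8:67497258-67498454, log2 difference 2.80). Cytip, which encodes a regulator of leukocyte adhesion, had 170 and 253 against 28 and 24 (chr2:58156561-58157650, log2 difference 2.69). In each of these genes the lowest CAST value was several times the highest WSB value. The same was true of 4933407L21Rik (240 and 420 against 30 and 32, log2 difference 3.05) and of Iars2, the mitochondrial isoleucyl-tRNA synthetase (130 and 147 against 13 and 22, log2 difference 2.69). In the Iars2 window 61 of 171 words were repeated, and its region was listed in only 3 other samples, both 129 samples and the B6 female.

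The largest promoter differences toward WSB were greater in size. Adh6a, an alcohol dehydrogenase, had summit signals of 11 and 22 in the CAST female and male and 291 and 222 in the WSB female and male (chr3:138316073-138316574, 2787 bases from its start), a log2 difference of -4.20 ± 0.23 (SE; limma adjusted p = 1.43e-26). At Cavin3, which encodes a coat protein of caveolae, the region over the start itself had 19 and 24 in CAST and 322 and 303 in WSB (chr7:105481412-105482742), a log2 difference of -4.07. Both CAST values were below both WSB values by more than 10 times at both genes. Nobox, a homeobox gene of oocytes, had 9 and 38 against 267 and 276 (chr6:43307568-43308572, log2 difference -4.05), with the CAST female and male further apart than elsewhere. The regions of Nobox, Cdh7, March1 and Cntnap5c were listed in all 12 other samples.

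The other promoters of this group followed the same pattern. Cdh7, a cadherin, had 16 and 28 in CAST and 250 and 185 in WSB (log2 difference -3.54), and March1, a ubiquitin ligase that acts on class II histocompatibility molecules, had 16 and 16 against 178 and 131 (log2 difference -3.44). Trappc11, a component of a vesicle tethering complex, had 17 and 19 against 209 and 149 (log2 difference -3.49), and 75 of the 171 words of its window were repeated. Cntnap5c, a contactin-associated protein, had 33 and 50 against 375 and 277 (log2 difference -3.22). No CAST value of these genes reached a WSB value, and regions were chosen for strains that did not overlap. The last 2 were 4922502D21Rik (9 and 37 against 122 and 155, log2 difference -3.09) and Gm8206 (16 and 19 against 128 and 120, log2 difference -3.02), and each word of the Gm8206 window had further copies, up to 38. Where promoters were centred on their own median, all 19 of these promoter regions kept their call, with log2 differences from 2.45 to 3.30 toward CAST and from -4.44 to -3.26 toward WSB.

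**Figure D3:**
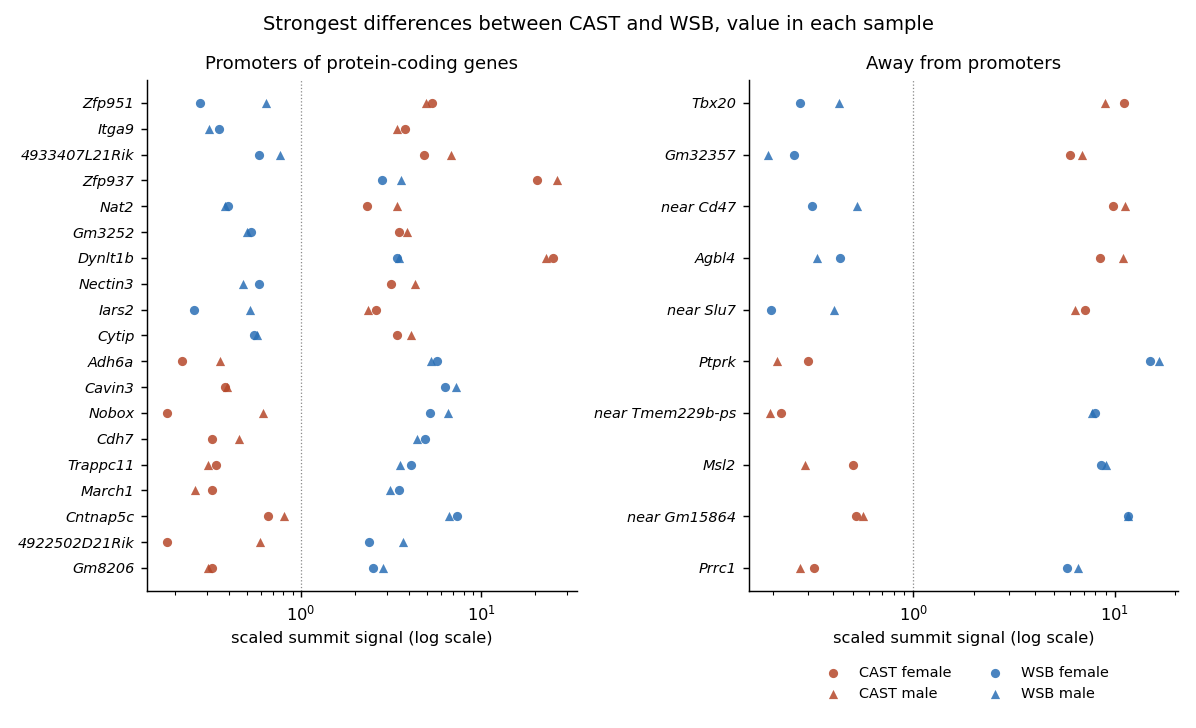
Scaled summit signal (x axis, log scale; 1, dotted, is the median region listed in all 4 samples) of the 19 promoter regions (left) and 10 regions away from promoters (right) named for their large differences, for CAST (red) and WSB (blue), female (circle) and male (triangle). These regions were chosen as called and without overlap between the strains, so each row has a gap. The gap runs, for example, from 3.60 to 20.5 at Zfp937 and from 0.355 to 5.29 at Adh6a.

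Away from promoters the differences were larger still. In an intron of Ptprk, a receptor tyrosine phosphatase, the region chr10:28523716-28525448 had summit signals of 15 and 13 in the CAST female and male and 764 and 696 in the WSB female and male. In scaled signal this was 0.255 ± 0.064 in CAST and 15.8 ± 1.13 in WSB (SD, n = 2), a log2 difference of -5.87 ± 0.20 (SE; limma adjusted p = 8.17e-40). It was listed in all 12 samples of the other strains. A region between genes near Tmem229b-ps, on the same chromosome (chr10:53465638-53467951), had 11 and 12 in CAST and 407 and 324 in WSB (log2 difference -5.13). WSB values were thus more than 10 times those of CAST at both. Msl2, whose product is part of a histone acetyltransferase complex, had 25 and 18 against 438 and 378 in an intron (chr9:101097193-101097945, log2 difference -4.46), in a window with 82 of 171 words repeated. Near Gm15864 the values were 26 and 35 against 595 and 488 (chr6:82124777-82125722, log2 difference -4.38), and in an intron of Prrc1 16 and 17 against 296 and 277 (chr18:57386416-57387504, log2 difference -4.30). All 5 of these WSB-higher regions were listed in all 12 samples of the other strains.

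The 5 leading CAST-higher regions away from promoters were listed in fewer of them. The region in an intron of Tbx20, a T-box factor of the heart (chr9:24745000-24745230), had summit signals of 555 and 555 in CAST and 14 and 18 in WSB, a log2 difference of 4.78 ± 0.20 (SE; limma adjusted p = 4.99e-33), and was listed in 8 of the other samples. Its window shares words with the mitochondrial genome, as given above. In an intron of Gm32357 (chr16:86262556-86263998) the values were 300 and 426 against 13 and 8 (log2 difference 4.74), and the region was listed in 10 other samples. Some 56362 bases from Cd47, which encodes a surface signal that restrains phagocytes, a region had 488 and 696 against 16 and 22 (chr16:49923195-49924708, log2 difference 4.62), and 7 other samples listed it. These 3 regions were strong in both CAST samples and weak in both WSB samples. An intron of Agbl4, an enzyme that trims glutamates from tubulin, had 421 and 678 against 22 and 14 (chr4:110797036-110798534, log2 difference 4.59). Its region was listed in 4 other samples, both PWK samples, the B6 female and the NOD female. The region nearest Slu7, a splicing factor, had 355 and 394 against 10 and 17 (chr11:43449331-43450351, log2 difference 4.47), was listed in 6 other samples and had 38 of 171 words repeated.

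Regions of 1 strain included some of very high signal. The strongest CAST-only region lay in the 3' untranslated part of the last exon of Cers5, a ceramide synthase (chr15:99735604-99736133, 530 bases), with summit signals of 3101 in the CAST female and 3464 in the CAST male and no peak in WSB. This is a scaled signal of 58.9 ± 4.35 (SD, n = 2). The next was at the same place in Ubqln1, which carries tagged proteins to the proteasome (chr13:58177515-58177880, 366 bases), with 1098 and 1177. Neither region was listed in any of the 12 other samples, and neither window held a repeated word. Narrow regions near Gm47965 (chr10:126511621-126511804; 741 and 997) and in an intron of Srl, a calcium-binding protein of the sarcoplasmic reticulum (chr16:4495826-4496316; 578 and 814), were likewise listed in no other sample. The last pair was found elsewhere. A region 4886 bases from Capg, an actin-capping protein (chr6:72538158-72539505; 547 and 810), was listed in all 12 other samples, and the start of 9030624G23Rik (chr12:24096121-24098182; 548 and 777) in 10 of 12.

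The strongest WSB-only regions were present in most other strains. A region of 1672 bases near Tmem125 (chr4:118547059-118548730) had 547 in the WSB female and 947 in the WSB male and was listed in 11 of 12 other samples. One near Gm25956 (chr7:54156300-54157072; 811 and 717) and one 44250 bases from Stc2, a secreted glycoprotein hormone (chr11:31414324-31416061; 549 and 524), were listed in all 12. These were regions in which CAST had no peak and most strains had one. Introns of Cwc27, a splicing-associated cyclophilin (chr13:104742898-104743101; 753 and 736), and of Cplane1, a ciliogenesis factor (chr15:8267800-8268993; 757 and 530), were listed in 8 and 10 of 12. The promoter region of CT025601.1 (chr17:66321520-66322896; 449 and 400) was listed in 10.

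Of 15272 protein-coding genes with a promoter region, 295 had a CAST-only and 210 a WSB-only region. Of all 223893 merged regions, 6.10% were CAST-only and 8.13% WSB-only, so both kinds were scarcer at these promoters and their order was the reverse. After 9030624G23Rik, the strongest CAST-only ones belonged to Tiam1, an activator of the small GTPase Rac (chr16:89962505-89963288; 272 and 421), Klrb1f, a receptor of natural killer cells (chr6:129048894-129049936; 168 and 247), and Gm19684 (chr17:36120483-36121886; 170 and 198). Tiam1 was listed in 8 of the other samples, and both others in all 12. The strongest WSB-only ones belonged to Slc19a3, a thiamine transporter (chr1:83036676-83037218; 203 and 179), Fam213b, a prostaglandin synthase (chr4:154897923-154899493; 159 and 164), Itln1, a lectin (chr1:171538175-171538966; 182 and 145), and Slc23a4, a transporter (chr6:34979031-34979833; 203 and 125). Fam213b was listed in all 12 other samples and the other 3 genes in 10 of 12. Klrb1f and Gm19684 belong to families of similar genes, and in the Gm19684 window 47 of 171 words were repeated.

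Most regions of 1 strain stood singly between shared regions, but some formed long runs. Runs of 1 region numbered 8518 in CAST and 10749 in WSB. The longest CAST-only run held 39 neighbouring regions over 2223800 bases of chromosome 7 (chr7:31573200-33796999), among the Scgb1b and Scgb2b genes, which encode secreted androgen-binding proteins of saliva. A run of 36 lay on chromosome 3 (chr3:106083650-106371799) over Chil3 and Chil4, chitinase-like proteins. Both stretches hold families of similar genes. Averaged over the 12 other samples, 2.14% of the regions of the first run and 16.7% of those of the second were listed. The longest WSB-only run held 32 regions (chr12:18220200-18606519) around 5730507C01Rik, and others held 25 regions over the Klra genes, receptors of natural killer cells (chr6:130222600-130387665), 21 over the Igkv genes of the immunoglobulin kappa light chain (chr6:69748800-70033928), and 25 over Gm18878 and Gm2544 (chr13:12764283-12924017). The first 3 were listed at rates of 22.4%, 17.7% and 9.13% in the other samples and the last at 63.7%.

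Repeated DNA was more frequent in CAST-only than in WSB-only regions. Regions made up mostly of annotated repeats were 21.8% of CAST-only, 7.66% of WSB-only and 2.78% of shared regions, against 11.1% of all merged regions. The 30 bases at the summit had a further exact copy in the reference for 26.2% of CAST-only regions, 8.43% of WSB-only regions and 3.72% of shared regions. Among shared regions called higher in CAST the share with a further copy was 4.55% and among those higher in WSB 3.54%. Promoters made up 17.2% of CAST-only, 13.6% of WSB-only and 27.3% of shared regions, against 19.7% of all merged regions.

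The genes that the study discusses showed moderate differences. Abcc8 and Kcnj11, which encode the subunits of the potassium channel that couples glucose metabolism to insulin release, lie side by side on chromosome 7. The region at the start of Abcc8 (chr7:46174200-46180928) had summit signals of 96 and 109 in the CAST female and male and 47 and 51 in the WSB female and male, or 1.84 ± 0.115 and 1.07 ± 0.207 in scaled signal (SD, n = 2). CAST was higher in both samples, with a log2 difference of 0.79 ± 0.22 (SE; limma adjusted p = 0.00293). The start of Kcnj11 lay in a merged region of 22002 bases with 269 and 321 in CAST and 136 and 110 in WSB (log2 difference 1.00, limma adjusted p = 1.16e-06). Nomo1, an endoplasmic reticulum protein encoded beside them, had 188 and 233 against 118 and 105 (chr7:46033361-46034548, log2 difference 0.64, limma adjusted p = 0.0022). With promoters centred separately, Kcnj11 kept its call (log2 difference 0.75, limma adjusted p = 0.00172), whereas Abcc8 (adjusted p = 0.127) and Nomo1 (adjusted p = 0.118) did not. Over the whole body of Abcc8, 13 regions were listed in all 4 samples, of which 6 were higher in CAST and 1 in WSB. Of all 85103 regions tested 20.2% were higher in CAST and 16.4% higher in WSB.

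The other genes named there were not called at their promoters. Pdx1, the master regulator of beta cell identity, had 161 and 181 in CAST and 172 and 130 in WSB (chr5:147269776-147271212, log2 difference -0.07, limma adjusted p = 0.782), so the strains overlapped. Kcnq1, a potassium channel in an imprinted domain, had 35 and 34 against 45 and 27 (log2 difference -0.28, limma adjusted p = 0.482). The promoter of Adcy5, an adenylyl cyclase, was weak and listed at 29 and 27 in CAST, at 12 in the WSB female and not at all in the WSB male, and was therefore not tested. Within the gene body of Adcy5, 3 regions were listed in all 4 samples, of which 1 was higher in WSB, beside 1 CAST-only and 2 WSB-only regions. Of all regions tested 16.4% were higher in WSB, and 6.10% of all merged regions were CAST-only and 8.13% WSB-only.

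Of the hormone genes Ins2 was called, Ins1 and Gcg were not, and the others could not be tested. Ins1, the rodent-specific insulin gene, had summit signals of 457 and 589 in CAST and 538 and 416 in WSB (log2 difference -0.13, limma adjusted p = 0.543). Ins2, the ancestral insulin gene, had 186 and 201 against 81 and 104 (log2 difference 0.81, limma adjusted p = 0.000365), and kept its call with promoters centred separately (log2 difference 0.56, adjusted p = 0.0452). In each of the insulin windows 13 of the 171 words had a second copy. Gcg, which encodes glucagon, had 374 and 525 against 398 and 281 (log2 difference 0.14, limma adjusted p = 0.5). Sst, Ppy and Pyy, the hormone genes of delta and PP cells, had no region within 1 kb of a start in any of the 4 lists.

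The factors that build islet identity were mostly level or higher in CAST. Of 21 islet transcription factor genes 20 had a promoter region listed in all 4 samples, of which 8 were higher in CAST (40%), 2 were higher in WSB and 10 were not called, with a median log2 difference of 0.38. This is close to the 40.3% of all protein-coding promoters. Mafa, which activates insulin transcription in mature beta cells, had summit signals of 252 and 223 in CAST and 115 and 105 in WSB (chr15:75747471-75748791, log2 difference 0.84, limma adjusted p = 8.39e-05). Prox1 had 119 and 130 against 54 and 55 (log2 difference 0.91). The CAST values were about double those of WSB at both genes. Mnx1, Neurod1, Foxa2, Isl1 and Nkx6-1 were also called higher in CAST, with log2 differences of 0.67, 0.60, 0.59, 0.51 and 0.43. Foxa1 (log2 difference -0.56, limma adjusted p = 0.00481) and St18 (-0.38, 0.045) were called higher in WSB. With promoters centred separately 2 genes were higher in CAST, Mafa and Prox1, and 2 were higher in WSB, Foxa1 and St18.

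Genes of beta cell hormones and glucose sensing were called in both directions. Of 14 testable genes of beta cell hormones and glucose sensing 4 (28.6%, beside 40.3% of all protein-coding promoters) were higher in CAST, namely Kcnj11, Ins2, Abcc8 and the zinc transporter Slc30a8, and 2 were higher in WSB. The 2 were Slc2a2, the glucose transporter of rodent beta cells (log2 difference -0.56, limma adjusted p = 0.00827), and Ucn3, a marker of mature beta cells, with summit signals of 104 and 162 in CAST and 193 and 160 in WSB (log2 difference -0.70, limma adjusted p = 0.00108). The summits of Ucn3 overlapped before scaling and not after it. Among 22 granule and exocytosis genes 11 were higher in CAST and 0 in WSB at an adjusted p under 0.05, with a median log2 difference of 0.53. This is 50% of the list beside 40.3% and 5.65% of all protein-coding promoters, which had a median of 0.34. They included the calcium channel Cacna1a (109 and 110 against 53 and 42), the prohormone convertase Pcsk1 (455 and 553 against 280 and 211) and the granule protein Ptprn (371 and 426 against 224 and 175), with log2 differences of 0.94, 0.78 and 0.74. Those 3 were the genes that kept their call when promoters were centred separately, although on the deposited mean signal the Ptprn difference was -0.086.

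Of 12 genes of the other islet endocrine cells 7 were tested, with a median log2 difference of -0.04. Of these, 1 (14.3%) was higher in CAST and 1 (14.3%) in WSB, beside 40.3% and 5.65% of all protein-coding promoters. The contrast was sharp at these 2 genes. Hhex, the transcription factor of delta cells and a diabetes risk gene, had summit signals of 106 and 172 in CAST and 25 and 20 in WSB (chr19:37433216-37435824). This is a scaled signal of 2.12 and 2.77 against 0.49 and 0.476, a log2 difference of 2.28 ± 0.24 (SE; limma adjusted p = 8.25e-13), and 2.04 with promoters centred separately. Rbp4, which carries retinol, had 48 and 49 against 95 and 89 (chr19:38123949-38125482, log2 difference -1.17, limma adjusted p = 1.55e-05). Hhex thus was higher in CAST and Rbp4 in WSB, in both samples each. The alpha cell factors Irx1 and Irx2 had log2 differences of 0.01 and -0.07 and were not called. In bulk islets a smaller share of cells with an open region and a lower accessibility in each cell cannot be told apart.

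Among antioxidant genes the largest difference was at Nfe2l2, the master regulator of the antioxidant response. It had summit signals of 426 and 588 in CAST and 189 and 179 in WSB (chr2:75702654-75705537, log2 difference 1.18, limma adjusted p = 3.48e-09). Its classical target Nqo1 had 167 and 177 against 73 and 66 (log2 difference 1.03, limma adjusted p = 7.77e-06), and both kept their call with promoters centred separately. Of 22 tested entries of the glutathione and antioxidant list 6 were higher in CAST and 0 in WSB. At 27.3%, with a median log2 difference of 0.28, this list was below all protein-coding promoters (40.3% and 0.34). With promoters centred separately 3 entries were higher in CAST and 1 in WSB. Nnt stands in this list under 2 annotated identifiers with 1 region. Junb, an AP-1 subunit, shared 1 region of 12799 bases with the peroxiredoxin gene Prdx2, with 440 and 411 against 171 and 160 (log2 difference 1.10). Of 23 immediate early and AP-1 genes 11 (47.8%, near the 40.3% of all protein-coding promoters) were higher in CAST and 0 in WSB, and with promoters centred separately 3 were higher in CAST (Junb, Egr3 and Ier2) and 1 in WSB (Nr4a2).

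Interferon and antigen presentation genes were called in both directions. Of 27 tested 13 (48.1%) were higher in CAST and 4 (14.8%) in WSB, beside 40.3% and 5.65% of all protein-coding promoters. Gbp3, an interferon-induced GTPase, had 413 and 624 in CAST and 171 and 142 in WSB (log2 difference 1.44, limma adjusted p = 6.67e-12), and the class I gene H2-D1 1694 and 1905 against 614 and 545 (log2 difference 1.37). Histocompatibility genes are highly variable between strains and similar to one another, so the H2 values are uncertain. The neighbouring antiviral genes Ifit1, Ifit2 and Ifit3 went the other way, with log2 differences of -0.60, -0.88 and -1.06, as did Oas1a (-0.97). At Ifit3 the summit signals were 66 and 102 in CAST and 155 and 132 in WSB, but 164 of the 171 words of its window had a second copy in the reference. With promoters centred separately 3 genes of the list were higher in CAST, among them Gbp3 and H2-D1, and 5 were higher in WSB (the 4 above and Cxcl10).

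Other lists lay close to the promoters as a whole. Of 23 entries for the unfolded protein response 11 were higher in CAST and 0 in WSB, of 69 cytosolic ribosomal protein genes 30 and 0, of 19 circadian clock genes 8 and 0, of 19 genes of cholesterol and lipid synthesis 7 and 0, and of 23 genes near human type 2 diabetes loci 8 and 0. Ddit3 stands in the first list under 2 identifiers with 1 region. Shares of 34.8% to 47.8% were near the 40.3% of all protein-coding promoters, and median log2 differences ran from 0.34 to 0.42 beside 0.34. Examples were the endoplasmic reticulum chaperone Calr (485 and 502 against 239 and 260, log2 difference 0.72), the ribosomal gene Rps3 (236 and 302 against 95 and 82, 1.32), the clock gene Per1 (348 and 361 against 205 and 158, 0.71) and the sterol enzyme Fdps (522 and 584 against 297 and 256, 0.74). On the deposited mean signal the Calr difference was -0.10. In these 5 lists, as in the granule, antioxidant and immediate early lists, limma also found 0 genes higher in WSB at an unadjusted p under 0.05. Among all 13449 protein-coding promoters 935 were higher in WSB at that threshold, and no test of the lists was run. With promoters centred separately the counts higher in CAST were 1, 5, 1, 1 and 3, and 1 ribosomal gene was higher in WSB. Of 326 zinc finger Zfp genes 85 (26.1%) were higher in CAST and 12 in WSB, and with promoters centred separately 34 and 29. Of 1087 olfactory receptor genes, which serve the sense of smell, 236 had a region near a start and 32 had one in all 4 lists, of which 7 were higher in CAST and 5 in WSB, and with promoters centred separately 4 and 6.

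Markers of cell types were checked in the same way. All 8 beta cell markers had a promoter region listed in all 4 samples, and their summed scaled signal was 39.7 and 39.4 in the CAST female and male and 35.4 and 36.8 in WSB. Of 12 acinar markers 4 had a region, and the defining genes Ptf1a, Cpa1, Prss2 and Ctrb1 had none. The acinar sum was 4.60 and 4.03 in CAST and 5.96 and 5.71 in WSB, to which Nr5a2 added much (log2 difference -0.74, limma adjusted p = 0.000737), which other cells also use. The duct sum was 6.34 and 6.18 against 4.67 and 5.00, with Krt19 and Spp1 listed in CAST only, Cftr called higher in WSB (log2 difference -0.74) and Sox9 without a region. The mesenchymal sum was 4.48 and 4.27 against 2.92 and 2.83, with Rgs5, a marker of pericytes, higher in CAST (55 and 75 against 30 and 15, log2 difference 1.29, limma adjusted p = 0.000174). Of 10 endothelial markers 4 had a region, Pecam1 and Cdh5 not among them, with sums of 1.62 and 1.35 against 1.49 and 0.952. Of 14 leukocyte markers 1, Cd68, had a region, and Ptprc had none. The part of other cell types in the strain differences was not tested.

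Sequence motifs within 100 bases of the summit differed between the sets. The AP-1 site TGANTCA, bound by dimers of the FOS and JUN families, was present in 34.5% of the regions called higher in WSB, 9.47% of those higher in CAST, 18.2% of all regions tested and 17.5% of all merged regions. It was found in 29.1% of WSB-only and 10.9% of CAST-only regions. It held away from promoters as well, where the shares were 36.0% and 12.5% for the called regions, beside 20.8% of the regions tested there, and 30.0% and 11.1% for the regions of 1 strain. The E-box CAGATGG of NEUROD1, a factor of endocrine cells, leaned the other way away from promoters. It was in 11.1% of CAST-higher and 8.40% of WSB-higher regions, beside 9.40% of the regions tested there. So did the CTCF core AGGGGGCGC with 1.28% and 0.226%, beside 0.884%. The FOXA site TGTTTAC was in 6.95% of CAST-higher and 8.77% of WSB-higher regions away from promoters, beside 7.50% of those tested. The GC-rich box GGGCGG of SP and KLF factors was in 23.4% of CAST-higher and 6.17% of WSB-higher regions over all classes, beside 13.1% of all regions tested. A match is a string in the reference and not a bound site.

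The AP-1 contrast was also read in every sample, over the 26315 regions away from promoters listed in all 16, of which 4346 held the site. Regions with the site exceeded those without it by 0.166 on the log2 scale in the CAST female and 0.213 in the CAST male, and by 0.562 and 0.633 in the WSB female and male. Both WSB samples were above both CAST samples. In the other samples the values ran from -0.210 in the 129 male to 0.566 in the PWK female. Between the sexes of PWK the gap was 0.463, and in 3 of the 6 other strains it was larger than the difference of 0.408 between CAST and WSB. For the CTCF core the contrast was 0.141 and 0.0960 in CAST and -0.115 and -0.0496 in WSB, and in 1 other strain, PWK, the sexes differed by more. The NEUROD1 contrast differed between CAST and WSB by 0.0701, and in 1 other strain, NZO, the sexes differed by more (0.0911). The FOXA contrast differed between CAST and WSB by -0.0617 and the SP and KLF contrast by 0.195, and in 4 and 3 of the 6 other strains the sexes differed by more.

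Strain differences were not spread evenly over chromosomes. On chromosome 18, 9.75% of the regions tested were higher in CAST and 28.4% higher in WSB, and WSB-only regions made up 12.8% and CAST-only regions 4.29% of its merged regions. Chromosome 11 went the other way, with 32.7% higher in CAST and 8.33% higher in WSB. Away from promoters, the median centred log2 signal of chromosome 18 was -0.104 and -0.0555 in the CAST female and male and 0.152 and 0.183 in the WSB female and male. Both WSB samples lay above both CAST samples there, as also on chromosomes 5, 6, 10, 13 and 19. On chromosomes 2, 8, 9, 11, 15 and 17 both CAST samples lay above both WSB samples. The median difference on chromosome 18 was -0.25, and -0.24 when regions were centred within bins of GC content. On chromosome 11 the medians were 0.0332 and -0.143 in CAST and -0.322 and -0.209 in WSB, a median difference of 0.21, and 0.15 within bins of GC content. Over regions listed in all 16 samples, the median of chromosome 18 minus that of all chromosomes was -0.353 and -0.342 in CAST and -0.0984 and -0.0802 in WSB. Both AJ samples were also low there, with -0.407 and -0.263, and the other 10 ranged from -0.0412 to 0.164. No other strain had a gap between its sexes as wide as the CAST to WSB difference of 0.258. For chromosome 11 the same difference was 0.130, and in 2 of the 6 other strains the sexes differed by more, by up to 0.295 in NZO.

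**Figure D4:**
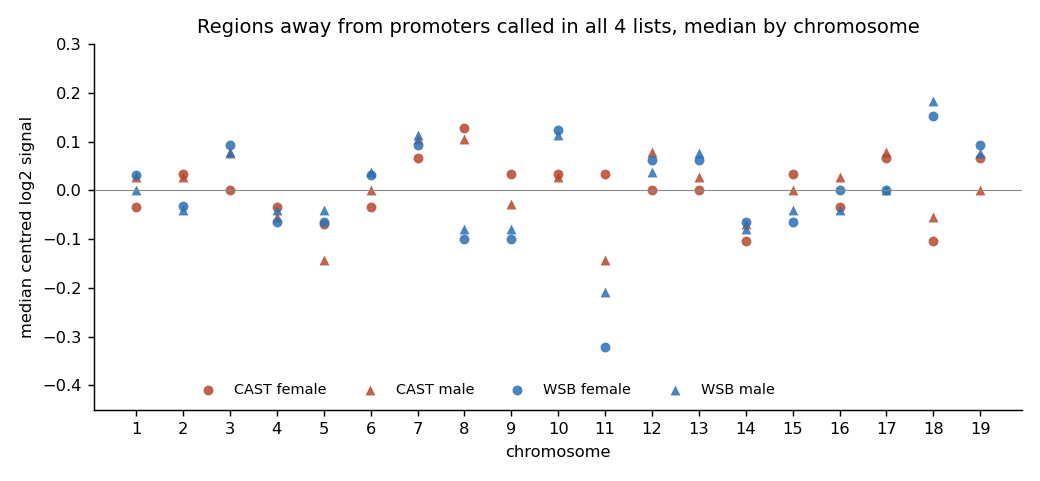
Median centred log2 summit signal of regions away from promoters (y axis) on each chromosome (x axis) in the CAST (red) and WSB (blue) female (circle) and male (triangle), over regions listed in all 4 samples. On chromosome 18 both WSB samples (0.152 and 0.183) lie above both CAST samples (-0.104 and -0.0555). The same order is seen on chromosomes 5, 6, 10, 13 and 19, and the opposite order on chromosomes 2, 8, 9, 11, 15 and 17.

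Within chromosomes the difference changed from stretch to stretch. Over 250 windows of 10 Mb with at least 50 regions away from promoters, the window medians of the log2 difference had an SD of 0.205. The lowest was at 0 to 10 Mb of chromosome 18, with a median of -0.67 over 118 regions, of which 3 were higher in CAST and 62 in WSB. There the CAST female and male had median centred signals of -0.426 and -0.236 and the WSB female and male 0.108 and 0.266. The next were 10 to 20 Mb of chromosome 5 (-0.56; 15 higher in CAST and 96 in WSB) and 10 to 20 Mb of chromosome 10 (-0.51; 12 and 113). The highest were 90 to 100 Mb of chromosome 15 (0.49; 81 and 9) and 110 to 120 Mb of chromosome 11 (0.46; 64 and 1). These windows were the extremes of the ranking by median difference, so that their calls leaned one way follows from the choice. Over all 61891 regions tested away from promoters, 10174 were higher in CAST and 11481 higher in WSB.

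The samples of the other 6 strains were not used to choose any of these regions and show how widely each set is found. CAST-only regions were listed most often in PWK. The share listed was 5.17% (AJ male) to 17.3% (NZO male) in the 10 samples of classical strains, and 27.5% and 25.1% in the female and male of PWK, the third wild-derived strain. WSB-only regions were listed more often, from 20.5% (AJ male) to 42.4% (B6 male) in classical strains and 32.0% and 24.6% in PWK. All merged regions were listed at 28.9% (AJ male) to 43.5% (B6 female) in classical samples and at 44.2% and 39.8% in PWK. CAST-only regions were below this share in every sample, and WSB-only regions in all but the B6 male (42.4% against 40.4%). In none of the 12 samples was a peak found for 6279 CAST-only regions (46.0%) and 3541 WSB-only regions (19.5%), beside 30.7% of all merged regions. Any classical sample listed 37.3% of CAST-only and 74.8% of WSB-only regions, and any PWK sample listed 35.0% and 39.2%. In 11 of 12 samples WSB-only regions were listed more often than CAST-only regions, and in the PWK male less often. Longer lists hold more of any set. With the same number of peaks taken from all 16 lists, CAST-only regions were listed at 17.3% (AJ male) to 30.2% (129 female) in classical samples and at 33.5% and 30.5% in PWK, so the PWK male was then level with the 129 female. Under that setting 29% of CAST-only, 7.75% of WSB-only and 9.37% of all merged regions were in no other sample, and any classical sample listed 60.4% of CAST-only and 89.6% of WSB-only regions. The PWK male then listed WSB-only regions more often (32.4% against 30.5%), as it did when peaks had to span at least 0.5 of a region (16.5% against 15.7%). With equal numbers of peaks, all merged regions were listed at 56.2% (NZO male) to 67.1% (B6 female), and in every sample more often than either set. For the lists as deposited, the share of all merged regions listed in each sample is drawn beside them.

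**Figure D5:**
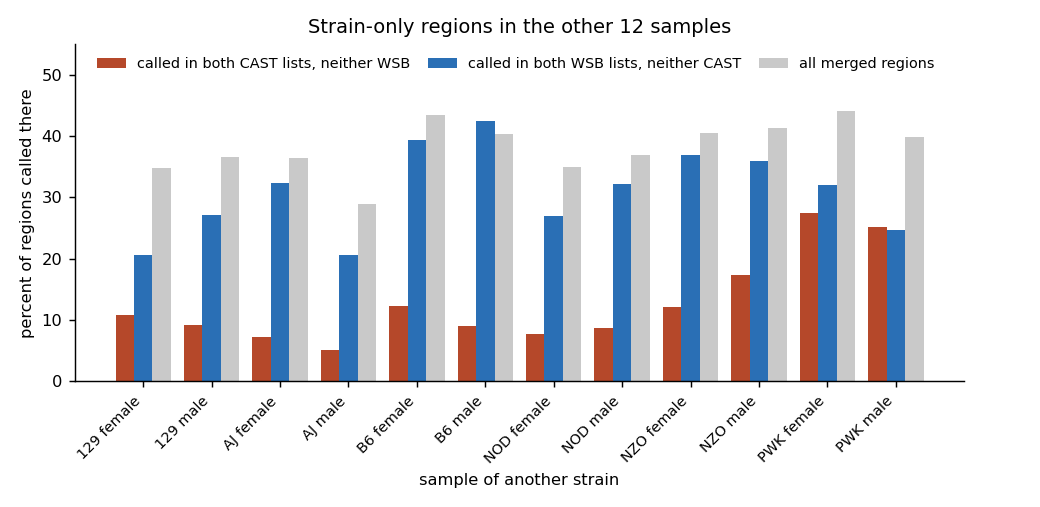
Percent of CAST-only regions (red), WSB-only regions (blue) and all merged regions (grey) that were listed (y axis) in each of the 12 samples of the other 6 strains (x axis). CAST-only regions reach 27.5% and 25.1% in PWK and at most 17.3% elsewhere with the lists as deposited. WSB-only regions reach 42.4% in the B6 male, where all merged regions reach 40.4%. All merged regions reach 44.2% and 39.8% in PWK.

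Called regions were read in the same 12 samples by asking which strain's level the centred signal of a sample was nearer to. Of the 31115 calls, 9694 CAST-higher and 7776 WSB-higher regions were listed in all 16 samples. At CAST-higher regions the share nearer to WSB ran from 35.7% in the 129 female to 75.0% in the B6 male, and at WSB-higher regions from 49.5% in the 129 female to 81.7% in the B6 male. In 9 of 12 samples more than 50% of the regions of either kind were nearer to WSB, the exceptions being the 129 female, the NZO male and the PWK male, and regions not called gave 45.9% to 61.1%. All 12 samples were nearer to WSB at 5.35% of CAST-higher and 15% of WSB-higher regions. All 12 were nearer to CAST at 3.31% of CAST-higher and 1.5% of WSB-higher regions. All 12 were thus nearer to WSB more often where CAST was the lower strain. Being nearer to WSB does not place a sample at the level of WSB. Only regions listed in all 16 samples were read, so a region high in CAST and unlisted elsewhere could not enter. Since the calls chose the regions, these shares are a description and carry no test.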

How the data were processed

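ATAC-seq libraries of islets from 8 inbred strains, 1 female and 1 male of each, were processed by the authors with cutadapt 2.0, Bowtie2 2.3.4.1 on the B6 reference (mm10, the same sequence as GRCm38), SAMtools and Picard 2.9.2, with unmapped, mitochondrial and duplicate reads removed. MOSAiCS called the peaks of each sample separately (false discovery rate 0.05). Whether reads were shifted for the transposase is not given in the sources used here. The summit signal in the deposited peak lists is the authors' whole-number height, not scaled to depth. The deposited lists also give a mean signal and a −log10 p-value from the peak caller, and the authors' strain lists a −log10 irreproducible discovery rate, used in alternatives. Since a wild-derived strain's reads are placed on the B6 genome, sequence differences and accessibility cannot be told apart in these lists. The study also aligned reads to individualized genomes and reported small differences between the alignments. It reported no more strain-specific peaks in B6 than in other strains. The lists used here are those of the B6 alignment.

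Overlapping peaks of the 4 lists on chromosomes 1 to 19 were merged. The highest summit per sample and region, as log2(signal + 1) centred on the sample median over regions listed in all 4, was tested with limma 3.58.1 (R 4.3.3; trend in the variance, 2 against 2 samples, Benjamini-Hochberg adjusted p under 0.05). Genes came from GENCODE vM21 basic, and a gene's promoter region is that over its start or the nearest within 1 kb. Motifs and repeated 30-base words were read in windows of 200 bases around the summit. Scripts were tested on simulated data.

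Text names the 10 promoter regions and 5 other regions with the largest non-overlapping called change in each direction, the 6 strongest regions of each strain alone and 4 at promoters, none over 5 kb wide, genes the study names, hormone genes, and up to 4 called genes per list. Further list genes, named to complete a count or a marker check, were chosen after their values were seen. Members, lists and tests were chosen with earlier results of these data known. Alternatives were other scalings, signals, filters, thresholds and fits, leaving out each sample, sex as a block, and separate centring of promoters, which was chosen after seeing the data. Sex was the only label that samples of the strains shared, so the block stands for sex and not for paired animals. Chromosomes X and Y were left out. Results on 3 genes that these rules would name are not reported here.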

Additional observations from a re-analysis of the deposited data

Results flagged for a closer look

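At the promoter region of Gcg, the glucagon gene, the difference between CAST and WSB in centred log2 signal was -0.061 in the females and 0.35 in the males. The summit signals were 374 in the CAST female and 398 in the WSB female, and 525 in the CAST male and 281 in the WSB male. The direction thus differed between the sexes. With 1 sample of each strain and sex the difference between the sexes could not be tested.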

How the results depend on the processing

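The 30 strongest named regions of the shared set kept direction and call in 495 of 495 comparisons where they could be tested. They were chosen for large called changes in these data, so this says little about other regions. A region not listed in all 16 samples, such as that of Zfp951, had no comparison in the fit of 16. Counts moved. The 31115 calls became 19441 on the deposited mean signal, 4926 with all 16 samples in the fit and 12786 at a stricter peak threshold (−log10 p of 10), and 20674 to 29808 without 1 sample. The fit of 16 tested 41153 regions, in which the fit of 4 had called 9694 and 7776, and the stricter threshold tested 31802 and called 40.2% of them. Regions higher in CAST (17182) became 9899, 1613 and 6352 under the same settings, 11439 with no trend in the variance and 10726 to 15472 without 1 sample. Regions higher in WSB (13933) became 5451 without centring, 3313 with all 16 samples and 6434 at the stricter threshold. CAST-only regions numbered 4997 and WSB-only regions 6119 at that threshold, and 15094 to 34511 and 22098 to 55066 without 1 sample, where fewer samples set the condition. Their mean share listed in other samples, 12.7% and 30.9%, was 23.7% and 49.7% with equal numbers of peaks in all 16 lists and 6.80% and 17.4% where 0.5 of a region had to be covered. With a 1 kb promoter window, promoters were 19.9% of shared, 7.36% of CAST-only and 5.72% of WSB-only regions, against 11.1% of all merged regions. Protein-coding promoters higher in CAST (5422) were 1787 with GC bins, 2003 on the mean signal, 2283 without the trend, 296 with all 16 samples, 3282 at the stricter threshold, 1310 with promoters centred separately and 2177 to 5650 without 1 sample, the lowest being without the WSB female and 3108 without the WSB male. Those higher in WSB (760) were 222 without centring, 1168 with GC bins, 502 without the trend and 280 with all 16. Lists of at least 10 tested promoters with more genes higher in CAST numbered 13, which was every such list, and protein-coding promoters as a whole leaned the same way. They numbered 6 with all 16 samples and 9 with promoters centred separately.

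Sex as a block (the only pairing the labels allow) gave 16854 regions higher in CAST and 13623 higher in WSB, and changed no other count by over 1.5 times. Signs turned at uncalled genes and, on the mean signal, at 4 called ones. Pdx1 was 0.19 without centring, 0.14 on the mean signal, 0.027 on summed summits and -0.18 to 0.0070 without 1 sample, turning without the CAST male. On the mean signal Ptprn was -0.086, Calr -0.10 and Atf4 -0.012, none called there, and Rora was -0.68, a call toward WSB (limma adjusted p = 0.0114). Ins1 was 0.13 without centring and 0.0065 with GC bins. Gcg was -0.16 on the mean signal, -0.033 on summed summits, -0.019 to 0.25 without 1 sample (lowest without the WSB male) and -0.10 with promoters centred separately. The cause was not tested for any of these. Depth per library was unknown, and in the fifth of regions with the lowest summit signal 14.0% were called, against 45.4% in the highest.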
